A study of Mus musculus with 6 samples.

Results

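Catalase and the superoxide dismutases were examined in the skin of newborn mice that carry an always active variant of Nrf2 (caNrf2), a transcription factor of the oxidative stress response. The 4 genes, Cat, Sod1, Sod2 and Sod3, were taken through the platform annotation, as all probe sets annotated with 1 of these symbols and no other. This gave 13 of the 45037 probe sets tested, 2 for Cat, 5 for Sod1, 4 for Sod2 and 2 for Sod3, and 4 of 18193 genes. Of the 2 groups, one was 3 female K5cre-caNrf2 mice, labelled tg/tg, which had caNrf2 together with Cre recombinase under keratin 5 control, so that recombination is aimed at the basal cells of the epidermis and its appendages. The other was the control group of 3 female K5cre-wt mice, labelled tg/wt; that they had Cre without caNrf2 is the reading taken here. All 6 came from 1 litter of mixed FVB/N and C57BL/6 background and were taken at postnatal day 2.5. Total RNA of the back skin, with epidermis, dermis, fat and vessels together, was hybridised to 1 array per mouse. The sample descriptions of both groups add the word weak, which the labels do not explain.

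Superoxide dismutases turn superoxide into hydrogen peroxide, and catalase turns hydrogen peroxide into water and oxygen. The enzymes act in different places. Sod1 is the copper and zinc enzyme of the cytosol, Sod2 the manganese enzyme of the mitochondrial matrix, and Sod3 a secreted copper and zinc enzyme held by heparan sulphate in the extracellular matrix, while catalase is imported into peroxisomes. Nrf2 binds antioxidant response elements next to many genes of glutathione, thioredoxin and NADPH metabolism.

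The stretches just before the transcription start are shown for Cat, which passed the test below, and for Sod1 and Sod2, which did not. That of Sod3 is not shown because the reference sequences used did not hold it. The sequences are those of RefSeq and run 5′ to 3′ in the direction of the gene over 250 bases, the last base lying next to the start. Capitals mark matches on either strand to the CCAAT box, to the TATA box written TATAAA, and to TGACNNNGC, the core of the antioxidant response element.
Cat upstream of the start, GRCm38.p6 chr2:103485154-103485403, minus strand: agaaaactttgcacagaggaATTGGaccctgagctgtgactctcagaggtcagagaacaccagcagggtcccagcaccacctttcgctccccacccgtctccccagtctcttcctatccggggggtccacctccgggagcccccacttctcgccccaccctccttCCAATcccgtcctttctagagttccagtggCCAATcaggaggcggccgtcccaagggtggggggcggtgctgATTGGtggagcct
Sod1 upstream of the start, GRCm38.p6 chr16:90220512-90220761, plus strand: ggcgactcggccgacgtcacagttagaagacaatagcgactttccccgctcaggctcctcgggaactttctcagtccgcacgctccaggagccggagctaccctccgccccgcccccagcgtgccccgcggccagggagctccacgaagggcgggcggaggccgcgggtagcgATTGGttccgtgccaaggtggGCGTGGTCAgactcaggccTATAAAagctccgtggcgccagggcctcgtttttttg
Sod2 upstream of the start, GRCm38.p6 chr17:13007589-13007838, plus strand: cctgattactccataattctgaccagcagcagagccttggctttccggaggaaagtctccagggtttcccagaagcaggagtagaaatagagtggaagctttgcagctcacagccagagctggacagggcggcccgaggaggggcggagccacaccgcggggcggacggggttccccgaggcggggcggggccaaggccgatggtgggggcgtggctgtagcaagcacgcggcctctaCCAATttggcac
The Cat window held CCAAT 4 times, of which 2 were on the opposite strand as ATTGG, and the Sod1 and Sod2 windows held it 1 time each. Of 32851 promoter windows of this length, 33.8% hold at least 1 CCAAT. TGACNNNGC was absent from the Cat and Sod2 windows and matched the Sod1 window 1 time, on the opposite strand as GCGTGGTCA, and 10.2% of all windows hold it. Of the 11 other genes named below as risen, 8 had such windows (Nqo1, Gclm, Srxn1, Txnrd1, Me1, Pgd, Taldo1 and Gpx2), and 2 of these, Gclm and Txnrd1, held TGACNNNGC. Txnrd1 had 3 windows and Me1 and Pgd 2 each, so this count of genes cannot be set against the share of windows. The looser TGANNNNGC, in 35.2% of all windows, matched the same 9 letters of Sod1 and nothing in the windows of Cat and Sod2. TATAAA was found in the Sod1 window only among these 3, against 12.4% of all windows. The GC box GGGCGG, not capitalised, matched 1 time before Cat and 4 times before each of Sod1 and Sod2, with 32.7% of all windows holding it. These matches describe letters in a short window and say nothing of binding.

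Values are log2 of RMA intensity unless stated otherwise, and a difference is caNrf2 minus control from limma. Array medians lay between 80.9 and 82.1 intensity units. Arrays correlated across probe sets at 0.9961 to 0.9969 among caNrf2 mice and 0.9978 to 0.9980 among controls. Between the groups they correlated at 0.9961 to 0.9972, so caNrf2 arrays were no more alike than arrays of different groups. The 3 measured Y-linked genes, silent in female skin, lay between 2.94 and 3.95, which shows the level of an absent transcript. The main probe set of Nfe2l2, the gene of Nrf2, measured 9.91, 9.75 and 9.75 in caNrf2 skin, against 9.36, 9.40 and 9.42 in control skin. The groups did not overlap, but the difference of 0.41 ± 0.08 (SE) missed the threshold of 0.05 over all probe sets (limma, Benjamini-Hochberg adjusted p = 0.0812). Of 11 alternative fits that keep all arrays, it passed with a filter on low values (adjusted p = 0.0275), with log2(value + 16) (0.0461) and with an intensity trend (0.0171). It did not pass in the other 8, nor in the 6 that omit an array (adjusted p 0.104 to 0.358 in these 6). The second Nfe2l2 probe set, dim at a mean of 4.24 in control skin, differed by 0.24 ± 0.14 (adjusted p = 0.648), and its groups overlapped. The probes were not compared with the sequence of the transgene, so this is only a partial check of the labels. Keap1, which holds Nrf2 inactive, differed by 0.28 ± 0.08 (adjusted p = 0.349). Of all probe sets 102 rose and 6 fell, while 111 rose and 25 fell without caNrf2 mouse 1, and 61 to 67 rose and 1 to 3 fell without 1 of the control mice.

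Catalase was the only one of the 4 genes to pass the test, and it was higher in caNrf2 skin at both of its probe sets. The brighter Cat probe set measured 11.99, 11.80 and 11.77 in caNrf2 mice 1 to 3, against 11.22, 11.25 and 11.15 in control mice 1 to 3. Every caNrf2 array lay above every control array, with a gap wider than the spread within either group, and the caNrf2 arrays were the more scattered. On the linear scale this was 3705 ± 324 intensity units in caNrf2 skin and 2371 ± 83.8 in control skin (mean ± SD, n = 3 mice each). The log2 difference was 0.64 ± 0.08 (SE), a 1.56-fold level with a 95% interval of 1.37 to 1.77 (limma, adjusted p = 0.00779). The second Cat probe set measured 11.65, 11.48 and 11.45 in caNrf2 skin, against 10.79, 10.87 and 10.68 in control skin. Here too no value was shared between the groups, and caNrf2 mouse 1 was again the highest. The difference was 0.74 ± 0.09, or 1.67-fold with a 95% interval of 1.47 to 1.91 (adjusted p = 0.00314). Both probe sets read the same transcript in the same RNA, so they are not independent measurements of the mice. Among the 102 probe sets that rose, they ranked 68th and 54th by size.

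The call of the brighter Cat probe set was lost without control mouse 1 (0.65, adjusted p = 0.0566) and without control mouse 3 (0.61, adjusted p = 0.0595), while that of the second held in all 6 fits that omit an array (highest adjusted p = 0.0284). Of the 13 probe sets of the 4 genes, 2 passed the test, both of Cat, where 0.24% of all probe sets were called and 0.226% rose.

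**Figure D1:**
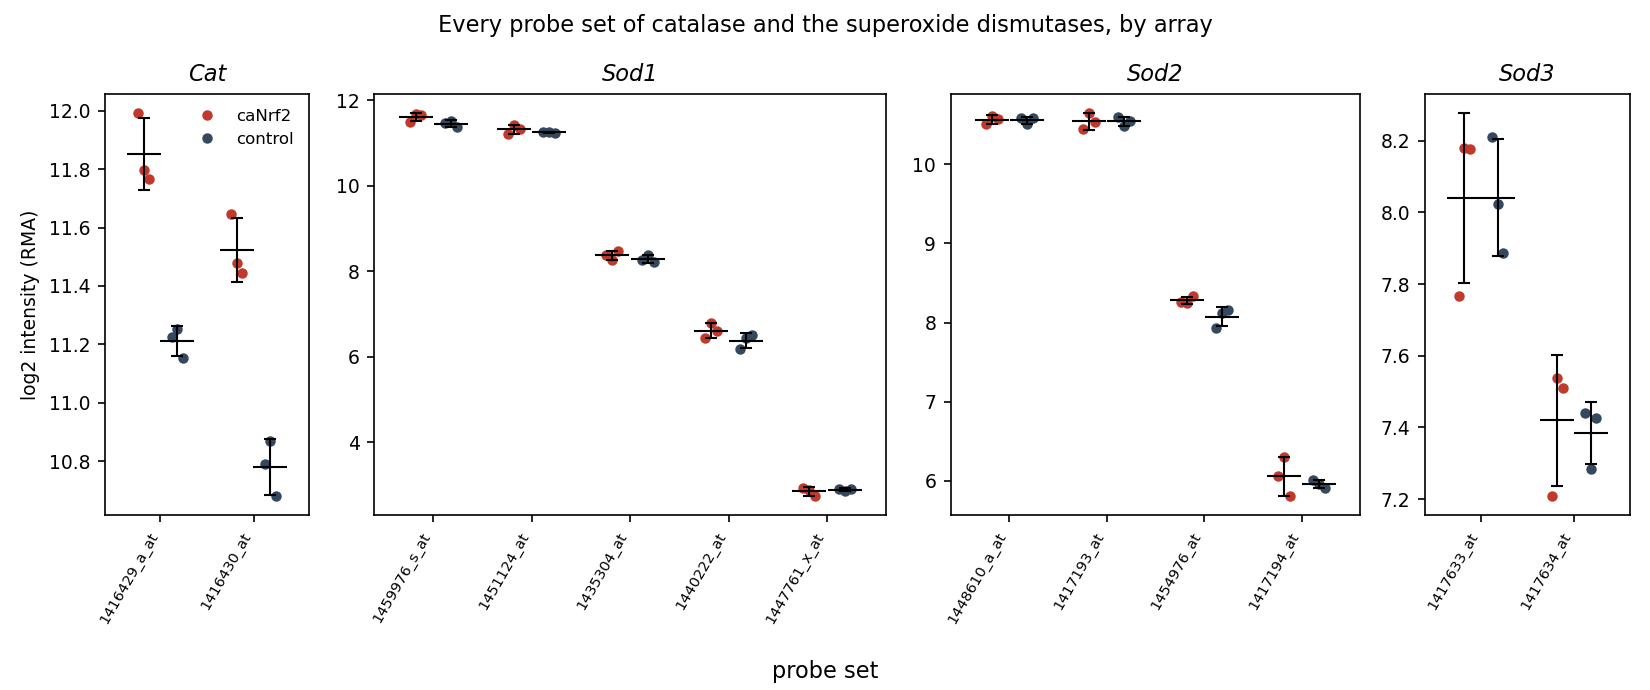
Log2 intensity of all 13 probe sets by array (horizontal axis, probe set; vertical axis, log2 RMA intensity, with a separate range in each panel), 3 caNrf2 mice left of 3 control mice, with bars for mean and SD. Both Cat probe sets separate the groups, from 11.77 to 11.99 against 11.15 to 11.25 at the brighter one, whereas at Sod1 and Sod3 the groups overlap at every probe set.

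Sod1, the cytosolic superoxide dismutase, did not pass the test at any of its 5 probe sets. Its brightest probe set measured 11.50, 11.69 and 11.65 in caNrf2 skin, against 11.47, 11.53 and 11.37 in control skin. The groups overlapped, since caNrf2 mouse 1 lay below control mouse 2, and the other caNrf2 mice lay above all controls. The difference was 0.16 ± 0.08, or 1.12-fold with a 95% interval of 0.983 to 1.27 (adjusted p = 0.613). The name of this probe set marks it as one that can bind more than a single transcript. The next in brightness measured 11.21, 11.43 and 11.34 in caNrf2 skin, against 11.26, 11.27 and 11.23 in control skin, a difference of 0.07 ± 0.08 (adjusted p = 0.835). Its control values were nearly equal and the caNrf2 values lay on both sides of them. The third probe set differed by 0.08 ± 0.09 (adjusted p = 0.815) and the fourth by 0.23 ± 0.11 (adjusted p = 0.584). The fifth lay between 2.74 and 2.94 on every array, no higher than the silent Y-linked genes, and its difference of -0.04 is not read further. The upper bound of the interval was 1.27-fold at the brightest and 1.19-fold at the second probe set, and 1.39-fold at the fourth, the widest of the 5.

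Sod2, the mitochondrial enzyme, was close to equal at its brighter pair of probe sets. The brightest measured 10.50, 10.61 and 10.57 in caNrf2 skin, against 10.58, 10.51 and 10.58 in control skin. The values were interleaved and spanned a narrow range in both groups. The difference was 0.01 ± 0.07, or 1.01-fold with a 95% interval of 0.899 to 1.13 (limma, adjusted p = 0.988). The second probe set differed by -0.001 ± 0.08 (adjusted p = 0.999). The third stood apart from these, with 8.26, 8.25 and 8.34 in caNrf2 skin, against 7.93, 8.13 and 8.16 in control skin. All its caNrf2 values lay above all control values, as they did at 6.9% of all probe sets, and the difference of 0.21 ± 0.08 did not pass (unadjusted p = 0.0320, adjusted p = 0.519, limma). The fourth, between 5.81 and 6.30 on all arrays, differed by 0.09 ± 0.11 (adjusted p = 0.851). Whether the third probe set differed from the others in its change was not tested.

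Sod3, the extracellular enzyme, showed no difference that passed the test and the widest scatter between mice among the brightest probe sets of the 4 genes. It measured 7.77, 8.18 and 8.18 in caNrf2 skin, against 8.21, 8.02 and 7.89 in control skin. The lowest value belonged to caNrf2 mouse 1 and the highest to control mouse 1, and the values of the groups were interleaved. The means were 8.04 ± 0.24 in caNrf2 skin and 8.04 ± 0.16 in control skin (SD, n = 3 each), and the 95% interval of the ratio was 0.828 to 1.21 (adjusted p = 0.9998 in limma, difference -0.0003 ± 0.12). Without caNrf2 mouse 1 the difference was 0.14 (adjusted p = 0.570). The second probe set measured 7.21, 7.54 and 7.51 in caNrf2 skin, against 7.44, 7.29 and 7.43 in control skin, a difference of 0.04 ± 0.10 (adjusted p = 0.950). At this probe set too caNrf2 mouse 1 was the lowest of the 6.

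**Figure D2:**
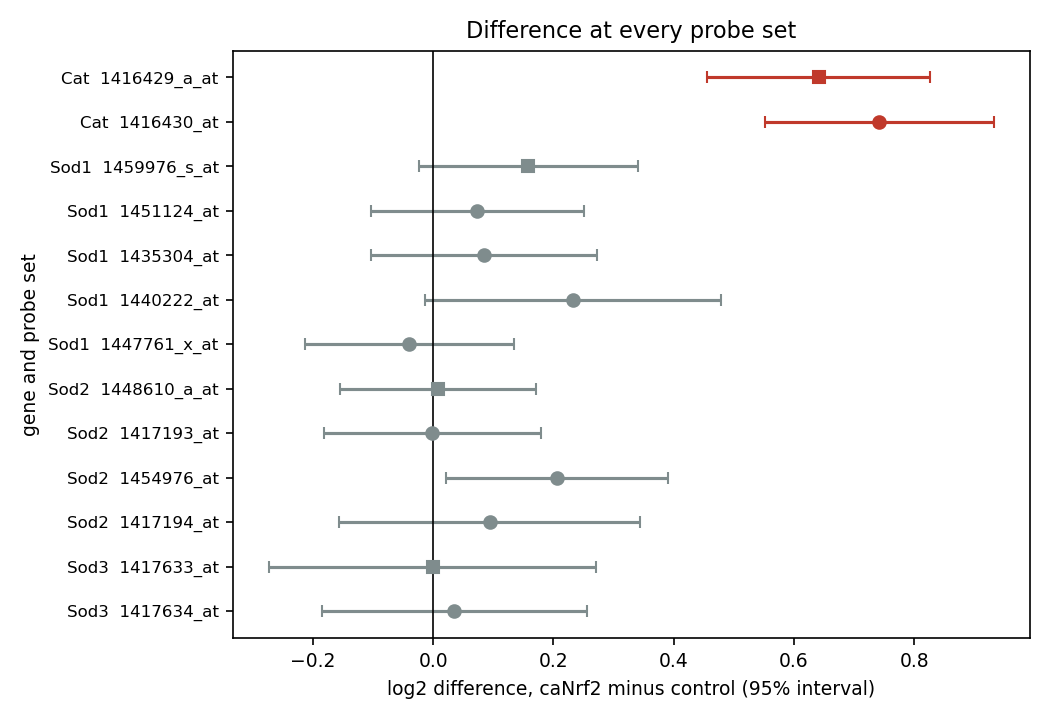
Log2 difference, caNrf2 minus control, at each of the 13 probe sets (vertical axis) with its 95% interval from limma (horizontal axis); squares mark the brightest probe set of a gene and red an adjusted p under 0.05. Only the intervals of Cat lie clear of those of the brightest Sod1, Sod2 and Sod3 probe sets, with a lower bound of 0.46 for Cat against upper bounds of 0.34, 0.17 and 0.27. The interval of the fourth Sod1 probe set reaches 0.48, above the lower bound of the brighter Cat probe set.

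The difference between genes was examined within each array, from the brightest probe set of each. Cat minus Sod1 was 0.49, 0.11 and 0.11 in caNrf2 skin, against -0.25, -0.27 and -0.21 in control skin. The groups did not overlap, and the change of Cat exceeded that of Sod1 by 0.48 ± 0.13 (log2, SE). The change of Cat exceeded that of Sod2 by 0.63 ± 0.11 and that of Sod3 by 0.64 ± 0.22, again with no overlap of the groups. Each of the 3 contrasts had p = 0.1 in an exact two-sided permutation test over the arrays, the smallest that 3 against 3 arrays can give, so none could pass 0.05, and adjusted over the 3 contrasts p remains 0.1. Relative to the control mean, Cat stood at 0.78, 0.59 and 0.56 in caNrf2 mice 1 to 3, while Sod1 stood at 0.05, 0.23 and 0.20 and Sod3 at -0.28, 0.14 and 0.14. Sod2 stood at -0.05, 0.06 and 0.02. Within its group, mouse 1 had the highest Cat value and the lowest Sod1, Sod2 and Sod3 values. In the fit with array weights its array had the lowest weight of all arrays (0.52).

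Related genes were grouped by role. Of 63 measured genes in 7 lists, which covered other peroxide removers, the sources of superoxide and peroxide, metal supply, peroxisomes, mitochondrial redox and regulators, 2 rose and 0 fell, where 0.302% of all genes rose and 0.022% fell. The medians of the 7 lists lay between -0.06 and 0.03, and that of all genes was -0.01. Of 12 listed peroxide removers outside catalase 9 were measured, since Prdx1, Prdx5 and Prdx6 had no probe set annotated with that symbol alone. Among the 9 measured 1 rose, Gpx2, a glutathione peroxidase of epithelia. It measured 10.37 ± 0.10 in caNrf2 skin and 6.66 ± 0.02 in control skin (SD, n = 3 each). It rose by 3.71 ± 0.08 (13.1-fold, adjusted p = 1.78e-09). Gpx4, which reduces lipid peroxides, had the next smallest p of that list and differed by -0.10 ± 0.07 (adjusted p = 0.728). The median of the 9 was -0.06.

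Metal supply genes and the measured sources of superoxide and peroxide did not pass the test. Of 9 measured genes of metal supply, with the copper chaperone Ccs that loads Sod1 among them, 0 passed and the median was -0.03. Ccs differed by -0.03 ± 0.10 (adjusted p = 0.958). The smallest p in the list belonged to the manganese exporter Slc30a10, at -0.19 ± 0.09 (adjusted p = 0.576) and near the level of silent genes, and to the copper pump Atp7a, at 0.15 ± 0.09 (adjusted p = 0.665). Of 8 measured sources of superoxide and peroxide, out of 12 listed, 0 passed (median 0.03), with xanthine dehydrogenase Xdh at 0.16 ± 0.11 (adjusted p = 0.713) and the NADPH oxidase subunit Ncf1 at 0.15 ± 0.10 (adjusted p = 0.668). Among 7 mitochondrial redox genes 1 rose (median 0.02). This was glutathione reductase, Gsr, which acts in the cytosol as well. It measured 9.20, 9.39 and 9.18 in caNrf2 skin, against 8.60, 8.52 and 8.61 in control skin, and rose by 0.68 ± 0.08 (1.60-fold, adjusted p = 0.00442). The mitochondrial thioredoxin reductase Txnrd2 differed by -0.10 ± 0.07 (adjusted p = 0.736).

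The peroxisome, in which catalase acts, held no other gene that passed. Of 13 measured peroxisome assembly and import genes 0 passed, with a median of 0.01 and a range of -0.15 to 0.06. Pex5, the receptor that carries catalase into peroxisomes, differed by -0.15 ± 0.11 (adjusted p = 0.739), and Pex11g, a membrane protein linked to peroxisome division, by -0.15 ± 0.09 (adjusted p = 0.665). Of 8 measured peroxisomal oxidases, which produce hydrogen peroxide, 0 passed and the median was 0.002. Acox2, the oxidase of branched fatty acids and bile acid intermediates, measured 8.25, 8.50 and 7.77 in caNrf2 skin, against 7.61, 7.41 and 7.54 in control skin. All caNrf2 values were above all control values, and caNrf2 mouse 3 was far below the other two. Its difference of 0.65 ± 0.15, as large as that of Cat, did not pass (adjusted p = 0.224), and passed without caNrf2 mouse 3 (0.85, adjusted p = 0.00890). Ddo, which oxidises D-aspartate, differed by 0.24 ± 0.09 (adjusted p = 0.465). Of 9 measured regulators known to act on Cat or Sod2 0 passed (median 0.01), with Foxo3 at 0.11 ± 0.07 (adjusted p = 0.682) and the NF-kappa-B subunit Rela at -0.11 ± 0.08 (adjusted p = 0.720).

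Known Nrf2 targets give the scale for the change of Cat. Of 11 measured reference targets 9 rose and 0 fell, with a median of 0.94. The rises ran between 1.47-fold for the pentose phosphate enzyme Taldo1 and 12.2-fold for the quinone reductase Nqo1. The call of Taldo1, among the fits that omit an array, was lost without caNrf2 mouse 2 and without control mouse 1, 2 or 3 (differences of 0.51 to 0.60, adjusted p 0.0533 to 0.131). Cat at 1.56-fold stood at the low end of this span, next to malic enzyme Me1 at 1.54-fold. The other rises were Txnrd1, cytosolic thioredoxin reductase, at 1.71-fold, Pgd, an NADPH-forming enzyme, at 1.92-fold, and the subunits of glutamate-cysteine ligase, Gclc at 2.01-fold and Gclm at 2.16-fold. Larger still were Gsta4, a glutathione S-transferase, at 4.26-fold and Srxn1, which repairs oxidised peroxiredoxins, at 5.81-fold. Srxn1 differed by 2.54 on the log2 scale at its brightest probe set and by 1.75 as the mean of all its probe sets, still called (adjusted p = 6.68e-06). The 2 that did not pass, named for this reason, were the cystine transporter Slc7a11 at 0.91 ± 0.17 (adjusted p = 0.0812) and haem oxygenase Hmox1 at 0.24 ± 0.10 (adjusted p = 0.541). The differences between these fold changes and that of Cat were not tested.

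**Figure D3:**
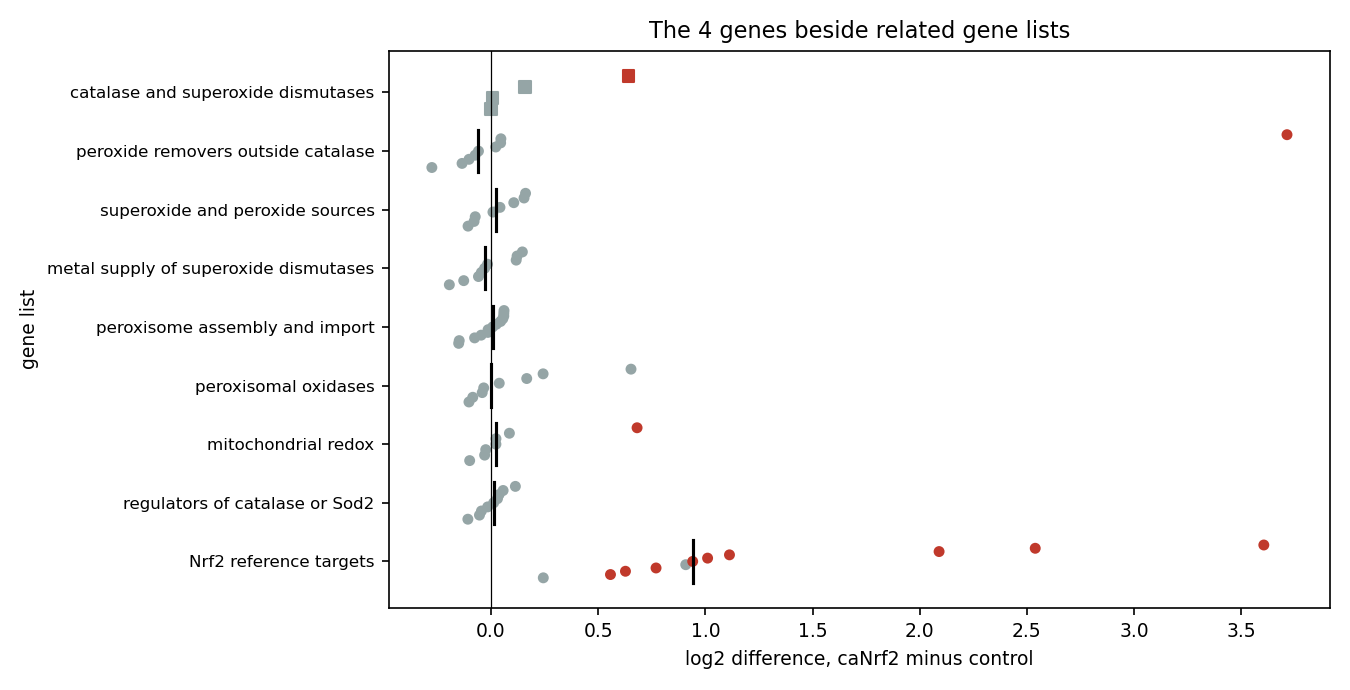
Log2 difference, caNrf2 minus control (horizontal axis), of the brightest probe set of each gene, for the 4 genes (squares, top row) and for 8 gene lists (circles, 1 per gene); red marks an adjusted p under 0.05 and the black bar the median of a list. Cat at 0.64 lies with the lower Nrf2 reference targets, while Sod1, Sod2 and Sod3 at 0.16, 0.01 and -0.0003 lie among genes that did not pass.

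The genes with the most similar profile to each member were found from the root mean square difference of mean-centred log2 values over the 6 arrays, among 11751 other genes at or above the median level. For Cat these were Entpd5, a nucleotidase of the endoplasmic reticulum, at 0.05, Gstm3, a mu-class glutathione S-transferase, at 0.05, and Cracdl at 0.08, where Cat itself deviated from its own mean by 0.33. Entpd5 measured 8.97, 8.87 and 8.81 in caNrf2 skin, against 8.33, 8.24 and 8.19 in control skin. Like Cat, it was highest in caNrf2 mouse 1. These genes were chosen for their likeness over the same arrays, so their group differences follow from the choice and are given with no test, at 0.63 for Entpd5, 0.57 for Gstm3 and 0.63 for Cracdl. The nearest to Sod1 were Smagp, N6amt1 and Mindy1, each at 0.02, where Sod1 deviated from its mean by 0.11. For Sod2 they were Septin9, Med8 and Ndufaf7, each at 0.01, and for Sod3 L3hypdh at 0.03, Gamt at 0.04 and 6430548M08Rik at 0.04. All profiles share the same 6 arrays.

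The measured genes on either side of each member, 5 per side as ordered in assembly GRCm38.p6, were also read. Of the 10 neighbours of Cat 0 passed, with a median of 0.03 and a range of -0.12 to 0.35. The highest was Ehf, an epithelial transcription factor, at 0.35 ± 0.13 (adjusted p = 0.457). Those next to Cat, Elf5 and Abtb2, differed by 0.08 ± 0.11 and -0.05 ± 0.08. No neighbour of Sod1, Sod2 or Sod3 passed either, with medians of -0.01, 0.02 and 0.03.

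**Figure D4:**
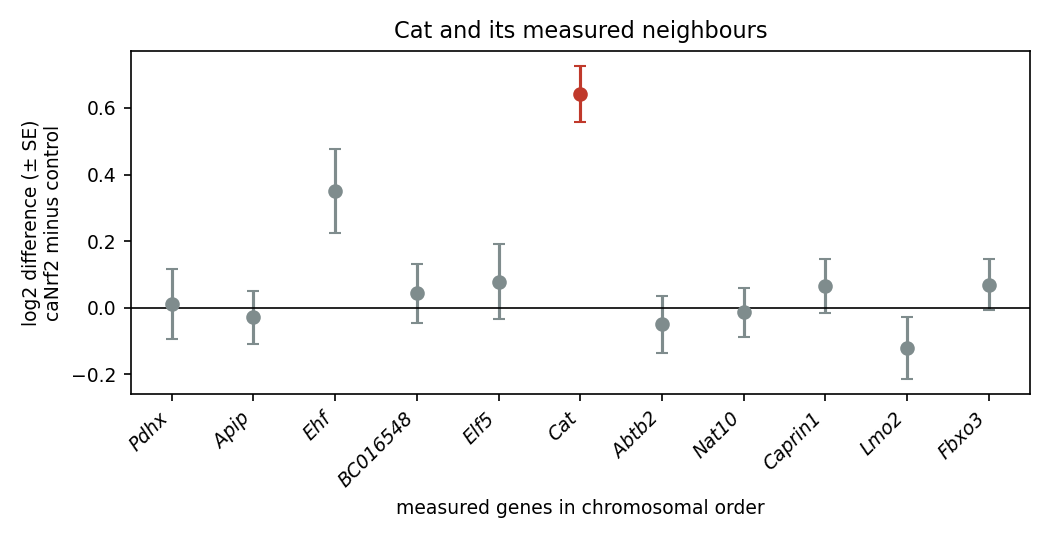
Log2 difference, caNrf2 minus control, with SE (vertical axis) of Cat and the 5 nearest measured genes on each side, in chromosomal order (horizontal axis, not to distance); red marks an adjusted p under 0.05. Cat at 0.64 stands above its 10 neighbours, of which Ehf at 0.35 is the highest and Lmo2 at -0.12 the lowest.

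The skin samples were checked with markers of the cell types they hold. In bulk skin fewer cells of a type and less RNA per cell cannot be told apart. Keratinocyte and fibroblast markers were bright on every array, with Krt5 at a mean of 13.50 in caNrf2 and 13.47 in control skin and Col1a1 at 13.79 in caNrf2 and 13.78 in control skin. Of 53 measured markers in 10 lists 0 passed, and list medians lay between -0.22 for neutrophils and 0.05 for basal keratinocytes. The summed intensity of the 7 basal markers was 36452 to 38589 units in caNrf2 skin and 35751 to 36954 in control skin. The 3 measured erythroid markers of 6 summed to 218 to 343 units in caNrf2 skin and 277 to 350 in control skin, and the 5 measured adipocyte markers of 6 summed to 9644 to 11271 units in caNrf2 skin and 9903 to 12076 in control skin. The ranges of all 3 lists overlapped between the groups, and the median difference was -0.04 for the erythroid and -0.10 for the adipocyte markers. The globin gene Hba-a1 averaged 4.12 in caNrf2 and 4.16 in control skin, just above the range of the silent Y-linked genes. The part of red cells and fat in the result for Cat was not tested. The hybridisation controls, added to the samples in fixed amounts, averaged 10.78 to 10.97 on the caNrf2 arrays and 10.64 to 10.71 on the control arrays, 0.17 higher in the caNrf2 group (exact permutation p = 0.1, the smallest possible), and their part in the result for Cat was not tested. The difference between 3 prime and 5 prime probe sets shifted by 0.002 for Actb and by -0.03 for Gapdh. For Gapdh it was -0.23, -0.22 and -0.24 in caNrf2 skin, against -0.22, -0.20 and -0.18 in control skin, so the groups did not overlap (p = 0.1 in an exact permutation test, the lowest that this design allows). Its part in the result for Cat was not tested.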

How the data were processed

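Total RNA of back skin (2 µg per mouse, per the labels' protocols) was labelled with biotin and hybridised to 1 array per mouse. The deposited values are intensities on a linear scale that the authors made with RMA, per the submitters' processing notes. Its version and any filter were not stated in the labels. RMA fits all arrays to 1 distribution, which hides a change common to most transcripts and shrinks differences of dim ones. The deposited intensities were converted to log2 here. From the 45101 probe sets the 64 Affymetrix control sets were removed. The platform annotation gave 34945 probe sets 1 symbol, 932 several and 9160 none, and only those with 1 symbol were named. Through the gene identifier 34741 matched the RefSeq table of assembly GRCm38.p6, which changed 0 symbols. The main probe set of a gene is that of highest mean over the 6 arrays.

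The test was limma's moderated linear model (lmFit, then eBayes with a constant prior, limma 3.58.1, R 4.3.3, unblocked) over all 45037 probe sets, adjusted by Benjamini-Hochberg, and an adjusted p under 0.05 counted as called. The fit was tested on simulated data, where it recovered 76.1% of 67 changes of 1.5-fold and 98.5% of 67 changes of 2-fold. The simulated errors were normal and independent, with the same variance in both groups. The wider scatter of the caNrf2 arrays was not simulated, so these shares hold for the simulated setting only. Changes below 1.5-fold were not simulated. Replicates were separate animals, and their number limits the precision. The genes named were the 4 members, Nfe2l2 and Keap1, in each list those called or else those with the 2 smallest p, and the 3 nearest profiles per member. Ccs, Hmox1, Slc7a11, the chromosomal neighbours and the markers quoted were added after their values were seen. The members and lists were chosen with earlier results of these data known. Alternatives were other normalisations, a filter on low values, summaries per gene, log2(value + 16), other variance models, array weights, a replicate block and leaving out each array. Columns of other series numbered 0.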

Additional observations from a re-analysis of the deposited data

How the results depend on the processing

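Cat kept its direction under all alternatives, with differences of 0.61 to 0.69 (adjusted p 0.000301 to 0.0186) under the 11 that keep all arrays and 0.57 to 0.68 (adjusted p 0.0170 to 0.0595) when single arrays were left out. It lost the call without control array 1 or 3, and the number of probe sets called among the 13 was then 1 in place of 2 (range 1 to 2). Cyclic loess normalisation was chosen after seeing the data. Sod1 stayed between 0.10 and 0.22 and was not called under any. Sod2 changed sign around 0 with a further quantile normalisation (-0.027) and cyclic loess (-0.019), and lay between -0.017 and 0.038 when single arrays were left out. Sod3 changed sign with median centring (0.0060), the mean of its probe sets (0.018), log2(value + 16) (9.08e-05) and array weights (0.064), and lay between -0.077 and 0.14 when single arrays were left out. Differences this close to 0 have no settled direction. The same holds for the second Sod2 probe set, at 0.0052 with median centring, 0.0011 with array weights and -0.057 to 0.049 without single arrays, and, without single arrays, for the fourth Sod2 probe set (-0.030 to 0.22), the second Sod3 probe set (-0.024 to 0.14) and the fifth Sod1 probe set (-0.082 to 0.015). Cat exceeded Sod1 by 0.36 to 0.59, Sod2 by 0.53 to 0.69 and Sod3 by 0.43 to 0.75 under all alternatives run. None of the 25 genes outside the members that the lists, Nfe2l2 and Keap1 supplied changed sign under any of the 17 alternatives it was fitted in; the filter on low values removed Ddo and Slc30a10, which had 16. The replicate numbers do not pair the mice: deviations of equally numbered mice correlated at -0.15, -0.04 and 0.04, and with the replicate number as a block Cat differed by 0.64 and 97 probe sets were called, against 108 without it; Taldo1 was not called with the block (0.56, adjusted p = 0.0548). Without control array 1, 2 or 3 the calls over all probe sets numbered 69, 64 and 67. Of the 108 calls 94.4% were higher in caNrf2 skin, against 81.6% of 136 without caNrf2 array 1 (111 rose, 25 fell) and 89.1% of 138 with array weights (123 rose, 15 fell). Dim probe sets limit what can be said, most of all the fifth of Sod1. The cause of these shifts was not tested.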
